A study of Mus musculus with 2 samples.

Results

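In all, 9 genes were described here, of 19465 genes listed in both libraries. They were taken by their symbols alone: the complement C1q chains C1qa, C1qb and C1qc, the receptors Csf1r, Cx3cr1, P2ry12 and Trem2, the membrane protein gene Tmem119 and the lysosomal gene Cd68. All 9 members had UMIs, that is, counted molecules, in both libraries, and 8 of 9 reached 5 CPM, that is, UMIs per 1000000 UMIs of the library, in at least 1 library. P2ry12 did not.

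The assay was spatial transcriptomics, which counts molecules from a section on an array of barcoded spots. A spot can cover several cells. The libraries were 1 from nude mice with a micropillar implant and 1 from nude mice with a flat implant, both labelled as bone and both from formalin-fixed, paraffin-embedded slides. Nude mice lack a functional thymus and so mature T cells, while their macrophages, microglia and B cells remain. Age, sex, and the number of animals behind each section were not given, and 1 library per group allows no test between implants.

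The micropillar library kept 3064 of 3303 spots, with 3173632 UMIs and a median of 831 per spot, and the flat library kept 2681 of 3161 spots, with 2263345 UMIs and a median of 602. Barcodes name grid positions, and the libraries share 2135 of them. The minimum for a kept spot was 100 UMIs. The labelled tissue described few of them: spots led by osteoblast and osteocyte markers numbered 36 of the micropillar library and 39 of the flat library, and spots led by marker genes of brain regions were more numerous. Spot classes were made from 11 marker lists that hold none of the 9 genes. These cover cortex, striatum, white matter, thalamus, hypothalamus, choroid plexus, meninges, bone, marrow, skeletal muscle and skin, and 1978 micropillar spots and 1428 flat spots met none of them.

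C1q is the recognition subunit of the classical complement pathway, built from A, B and C chains that are encoded side by side. In the healthy brain microglia are its main source, and elsewhere macrophages and immature dendritic cells make it. C1q binds immune complexes, dying cells and, during development, synapses, and then activates the proteases C1r and C1s. The receptor Csf1r, which binds Csf1 and Il34, is needed for the survival of microglia and of most tissue macrophages and is used by osteoclast precursors. Cx3cr1 is the receptor of fractalkine, P2ry12 is an ADP receptor of resting microglia, and Trem2 is a lipid-sensing receptor that signals through the adaptor Tyrobp. Tmem119 is a microglial marker in brain that osteoblasts also express, and Cd68 is a lysosomal glycoprotein of phagocytes.

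The C1q genes lie on the minus strand of chromosome 4 in the mm10 build within 18675 bp: C1qb at 136880129 to 136886187, C1qc at 136889804 to 136893065 and C1qa at 136895917 to 136898803. Cx3cr1 lies on chromosome 9, P2ry12 on chromosome 3, Tmem119 on chromosome 5, Trem2 on chromosome 17 and Cd68 on chromosome 11. All 9 are annotated as protein-coding. Promoters from RefSeq, build GRCm38.p6, were read for 6 of 9 genes, C1qb, C1qc, Cx3cr1, P2ry12, Trem2 and Cd68, and not for C1qa, Tmem119 and Csf1r. The promoter sequence of Trem2 is not printed here. Those given are of C1qb, C1qc and Cd68, which were among members called in class comparisons below, and of P2ry12, counted too rarely for one. They run 5′ to 3′ on the gene's strand and end at the base before the RefSeq start, except that of C1qc, which ends where the GENCODE gene begins. Capitals mark GAGGAA or its reverse complement TTCCTC, a core that ETS-family factors such as PU.1, encoded by Spi1, can bind.
C1qb, chr4:136886201-136886450, minus strand: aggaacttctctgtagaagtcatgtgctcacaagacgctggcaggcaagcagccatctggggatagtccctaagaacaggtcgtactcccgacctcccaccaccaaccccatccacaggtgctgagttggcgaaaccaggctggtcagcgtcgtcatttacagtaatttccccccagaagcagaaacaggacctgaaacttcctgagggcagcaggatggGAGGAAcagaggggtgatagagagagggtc
C1qc, chr4:136893066-136893164, minus strand: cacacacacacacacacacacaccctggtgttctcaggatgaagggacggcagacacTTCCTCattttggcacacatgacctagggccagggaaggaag
Cd68, chr11:69666171-69666420, minus strand: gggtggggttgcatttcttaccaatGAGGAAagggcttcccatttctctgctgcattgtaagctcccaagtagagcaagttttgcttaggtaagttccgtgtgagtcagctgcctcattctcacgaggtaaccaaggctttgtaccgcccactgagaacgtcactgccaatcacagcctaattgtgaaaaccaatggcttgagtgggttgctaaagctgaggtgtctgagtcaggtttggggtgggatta
P2ry12, chr3:59262986-59263235, minus strand: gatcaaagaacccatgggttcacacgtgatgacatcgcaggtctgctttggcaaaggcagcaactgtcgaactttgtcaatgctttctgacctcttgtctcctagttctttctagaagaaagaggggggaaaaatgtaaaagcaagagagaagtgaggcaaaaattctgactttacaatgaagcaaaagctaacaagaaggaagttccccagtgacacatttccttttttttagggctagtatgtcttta
The motif was searched on both strands in the 250 bases before the RefSeq start. It was found 30 bases before the start of C1qb, 193 before that of C1qc, 225 before that of Cd68 and 40 before that of Trem2. The window of P2ry12 did not hold these letters. None were recorded for Cx3cr1, of which 0 bases are held here, and for C1qc 99 of 250 bases are held. In all, 4 of 6 member promoters held the motif, against 7639 of 32851 RefSeq promoters (23.3%). Since not every member sequence held here is full, this comparison may not be like for like. A match is a description of letters and not a binding site.

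Over the whole section the 9 genes lay near the same level with either implant, and of their 9 ratios only that of Trem2 had a counting interval without 0. All 3 C1q chains were slightly higher with micropillars. C1qa had 254 UMIs, 80.0 CPM, in the micropillar library and 163 UMIs, 72.0 CPM, in the flat library. C1qb had 326 UMIs (103 CPM) in the micropillar library against 195 UMIs (86.2 CPM) in the flat library. C1qc had 243 UMIs (76.6 CPM) in the micropillar library against 161 UMIs (71.1 CPM) in the flat library. Each interval of the ratio included 0. Their log2 ratios of micropillar over flat, taken with a pseudocount of 1 CPM, were 0.15 for C1qa (95% counting interval -0.14 to 0.45), 0.25 for C1qb (-0.01 to 0.52) and 0.10 for C1qc (-0.19 to 0.40).

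Summed over the 3 chains, C1q had 259 CPM in the micropillar library and 229 CPM in the flat library, a log2 ratio of 0.18 (0.02 to 0.34). That direction depended on how spots were weighted. It was -0.12 when every spot weighed the same and 0.59 in spots with at least 500 UMIs. Intervals here and below cover counting error only, since 1 section of each implant was analysed.

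Trem2 was the member with the lowest ratio. It had 68 UMIs, 21.4 CPM (16.6 to 27.2), in the micropillar library and 79 UMIs, 34.9 CPM (27.6 to 43.5), in the flat library. The log2 ratio was -0.68 (-1.19 to -0.22), and 3.11% of the 11887 genes with at least 5 CPM in 1 library had a lower one. It kept its sign under every scaling, spot minimum, weighting and pseudocount run, and ran from -0.87 under equal weights to -0.40 in spots of 500 UMIs or more. Without the skin, muscle, bone and marrow spots it was -0.73.

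The other receptors did not stand apart. Csf1r, on chromosome 18, had 502 UMIs (158 CPM) in the micropillar library and 364 UMIs (161 CPM) in the flat library, the most of the 9 genes in each, with a log2 ratio of -0.02 (-0.22 to 0.17). Cx3cr1 had 84 UMIs (26.5 CPM) in the micropillar library and 69 UMIs (30.5 CPM) in the flat library, a log2 ratio of -0.20 (-0.68 to 0.28). P2ry12 had 10 UMIs in the micropillar library and 5 in the flat library, too few to place its ratio, whose interval ran from -1.17 to 2.41. Tmem119 had 53 UMIs in the micropillar library and 36 in the flat library (16.7 and 15.9 CPM, log2 ratio 0.07, -0.57 to 0.72). Cd68 had 286 UMIs in the micropillar library and 177 in the flat library (90.1 and 78.2 CPM, log2 ratio 0.20, -0.07 to 0.48).

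Of the 8 genes that reached 5 CPM, 1 was lower by at least 1.5-fold with micropillars, where 4.35% of all such genes were. None was higher by that much, where 9.22% were. With P2ry12 included, 6 of 9 ratios were above 0 and the median was 0.10. Over all genes tested the median was 0.06, 56.9% were above 0 and 22.8% had an interval without 0. The sum of the 9 genes had 575 CPM in the micropillar library and 552 CPM in the flat library, with a log2 ratio of 0.06 (-0.04 to 0.17).

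**Figure D1:**
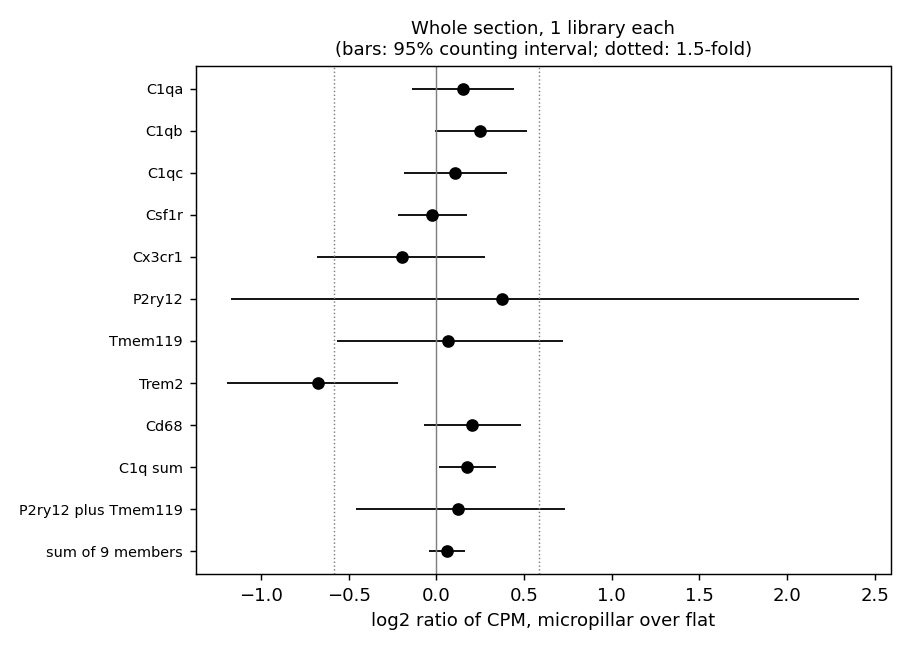
Log2 ratio of CPM, micropillar over flat, for each of the 9 genes and 3 sums over all kept spots of 1 library each. Points are ratios with a pseudocount of 1 CPM, bars are 95% counting intervals and dotted lines mark 1.5-fold. Trem2 lies at -0.68 with its whole bar below 0, and P2ry12 has the widest bar.

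Across the sections the C1q chains, Csf1r and Cd68 were highest in collagen-rich spots and, in the micropillar library, in bone spots, intermediate in white matter and skin spots, and low in striatum, hypothalamus and cortex spots. Cd68 in micropillar white matter was an exception. At 42.4 CPM (15.5 to 92.2) it overlapped striatum, at 26.6 CPM (8.64 to 62.1), and lay below skin, at 142 CPM (99.4 to 197). Collagen-rich spots are spots of no marker class with at least 5 UMIs of the collagen gene Col1a2 that made up at least 1% of the spot. They numbered 247 in the micropillar library and 227 in the flat library. Summed C1q had 1575 CPM (1352 to 1825) there in the micropillar library and 1752 CPM (1444 to 2106) in the flat library. Bone spots had 1558 CPM in the micropillar library and 728 CPM in the flat library, from 24 and 9 UMIs. These were the highest levels of any class. White matter spots had 515 CPM (73 UMIs) in the micropillar library and 678 CPM (60 UMIs) in the flat library. Skin spots had 429.9 CPM (109 UMIs) in the micropillar library and 333 CPM (55 UMIs) in the flat library. Choroid plexus spots had 459 CPM (16 UMIs) in the micropillar library and 351 CPM (9 UMIs) in the flat library. Brain grey matter classes were lower: striatum spots had 128 CPM in the micropillar library and 92.6 CPM in the flat library, hypothalamus spots 70.6 and 88.4 CPM, and cortex spots 59.8 and 38.02 CPM, from 9 and 6 UMIs. Marrow and muscle spots were less even between libraries, with 582 and 801 CPM in the micropillar library against 290.5 and 296 CPM in the flat library, from 19 and 11 UMIs against 2 and 15. Collagen-rich spots therefore exceeded white matter, skin, striatum and cortex spots in each library beyond counting error. White matter and skin spots had overlapping intervals in the micropillar library, of 404 to 648 and 353 to 519 CPM. In the flat library they did not overlap, at 517 to 873 CPM in white matter and 251 to 433 CPM in skin. Striatum and cortex intervals also overlapped in each library. In such spots fewer cells of a type and less RNA per cell cannot be told apart.

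The individual chains followed that order together. In collagen-rich spots C1qa had 605 CPM in the micropillar library and 605 CPM in the flat library, C1qb 507 and 651 CPM, and C1qc 463 and 496 CPM. In white matter spots C1qa had 148 CPM in the micropillar library and 248.7 CPM in the flat library, C1qb 184 and 192 CPM, and C1qc 184 and 237 CPM. In cortex spots no chain had more than 6 UMIs in a library.

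Cd68 was steeper than C1q towards the collagen-rich spots. It had 899 CPM (101 UMIs) there in the micropillar library and 915 CPM (59 UMIs) in the flat library, against 42.4 and 124 CPM in white matter. Cortex spots held 0 Cd68 UMIs in the micropillar library, which allows up to 19.9 CPM, and 1 in the flat library. Csf1r had 748 CPM in the micropillar library and 1008 CPM in the flat library in collagen-rich spots, 226 and 497 CPM in white matter, 193 and 176 CPM in skin, 133 and 96.2 CPM in striatum, and 53.2 and 63.4 CPM in cortex. Trem2 had 196 CPM (22 UMIs) in the micropillar library and 310.1 CPM (20 UMIs) in the flat library in collagen-rich spots, and 7.89 and 12.1 CPM in skin, from 2 UMIs each. Trem2 was thus low in the skin spots, where C1q was not.

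Cx3cr1 had another order. It had 70.6 CPM (10 UMIs) in white matter of the micropillar library and 56.5 CPM (5 UMIs) in that of the flat library. Striatum had 53.2 CPM (10 UMIs) in the micropillar library and 24.9 CPM (7 UMIs) in the flat library, and cortex 13.3 CPM (2 UMIs) in the micropillar library and 31.7 CPM (5 UMIs) in the flat library. Flat choroid plexus and bone spots, at 39.0 and 80.9 CPM, held 1 UMI each. Skin had 7.89 CPM in the micropillar library and 6.06 CPM in the flat library, from 2 UMIs and 1 UMI, and muscle had 0 UMIs in both. The intervals of white matter, striatum and cortex overlapped in each library.

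Tmem119 had its highest level in bone spots, at 195 CPM (40.2 to 569) in the micropillar library and 243 CPM (50.0 to 709) in the flat library, from 3 UMIs each. P2ry12, the other gene of resting microglia, had 0 UMIs in bone spots of either library, which allows up to 195 CPM in the micropillar library and 243 CPM in the flat library. Its UMIs were thinly spread over both sections. No spot held more than 1.

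**Figure D2:**
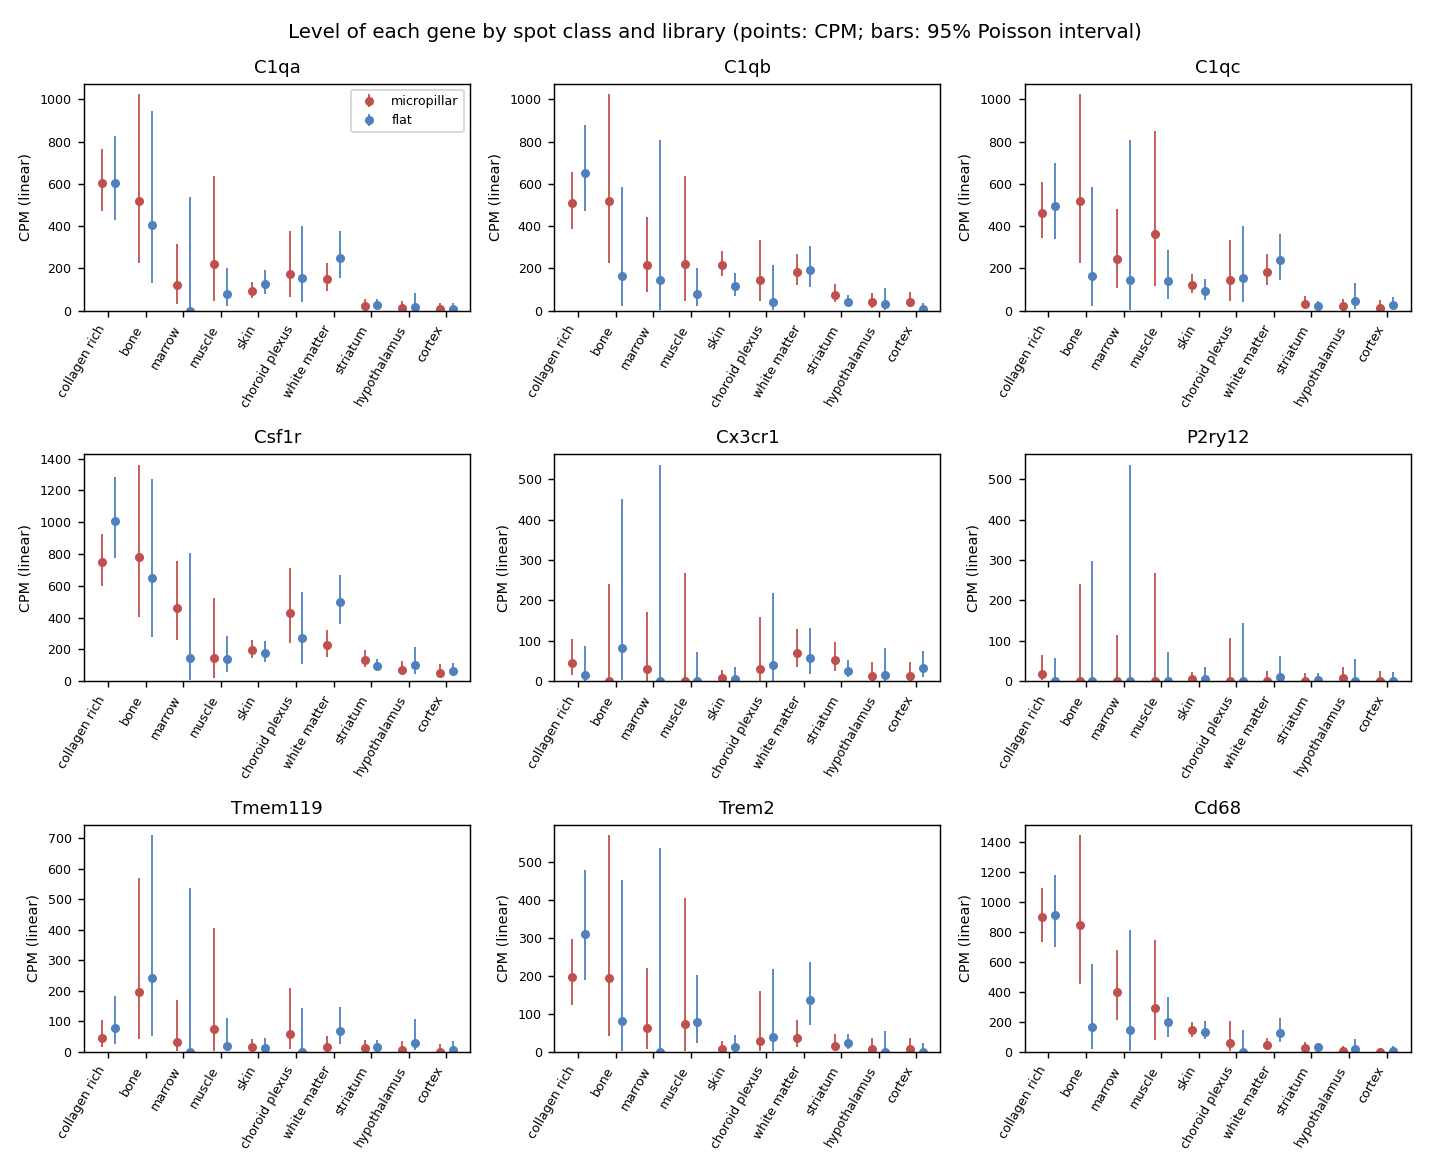
CPM of each of the 9 genes in 10 spot classes, micropillar points left of flat points, with 95% Poisson intervals of the summed UMIs on a linear axis. C1qa, C1qb, C1qc, Csf1r and Cd68 are high at the left in collagen-rich spots and in micropillar bone spots, whereas Cx3cr1 has its better-counted points in white matter and striatum.

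Pooling the classes showed the same contrast for C1q and Cd68 in fewer, larger counts. Bone, marrow, muscle and skin spots together had 517 CPM of summed C1q in the micropillar library, against 191 CPM in the 6 brain classes, a 2.70-fold level (2.14 to 3.41). In the flat library they had 345 CPM against 171 CPM, 2.01-fold (1.49 to 2.71). Cd68 differed more, with 209 CPM against 20.97 CPM in the micropillar library, 9.98-fold (5.64 to 18.8), and 149 CPM against 33.6 CPM in the flat library, 4.44-fold (2.51 to 8.02). Cx3cr1 went the other way, with 9.51 CPM against 37.7 CPM in the micropillar library, 0.252-fold (0.0489 to 0.819). In the flat library it had 8.51 CPM against 30.4 CPM, 0.28-fold with an interval of 0.0316 to 1.16 that includes 1. P2ry12 had 1 UMI outside the brain classes and 2 inside them in each library, so no difference was detectable at this depth. Csf1r had 247 CPM against 133 CPM in the micropillar library, 1.86-fold (1.36 to 2.54). In the flat library it had 191 CPM against 152 CPM, 1.26-fold with an interval of 0.864 to 1.82 that includes 1. The pool hides single classes, since flat white matter had 678 CPM of summed C1q and flat skin 333 CPM. C1q, Csf1r and Cd68 were highest in collagen-rich spots and, in the micropillar library, bone spots. The 9 genes are therefore called here by name and not as a measure of microglia.

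P2ry12 plus Tmem119 formed a small share of the UMIs of these genes and C1q together. In bone, marrow, muscle and skin spots the share was 5.78% (2.81 to 10.4) in the micropillar library and 7.95% (3.26 to 15.7) in the flat library. In the brain classes it was 6.16% (2.86 to 11.4) in the micropillar library and 12.3% (7.05 to 19.5) in the flat library. The intervals overlapped throughout, and most of these UMIs were of Tmem119.

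Each class was then compared with cortex in 1 fit over UMIs summed by library and class, with the library as a block (edgeR quasi-likelihood test, Benjamini-Hochberg adjusted over 9929 genes, called at an adjusted p of at most 0.05). Its p-values measure how class differences varied between the 2 sections, pooled over the classes fitted. They do not measure the spread between animals, and the 2 sections also differ in implant. Of the 8 members tested, 6 rose in white matter, where 2.26% of all genes did, and 7 rose in bone spots, where 3.46% did. In skin spots 5 rose, where 22.1% of all genes did, and in striatum none rose, where 2.66% did. No member fell in these comparisons, where 2.51% of all genes fell in striatum, 1.33% in white matter, 5.6% in bone and 19.1% in skin. The members' median log2 fold change was 3.15 in white matter, 3.90 in bone, 2.22 in skin and 1.54 in striatum, beside medians over all genes of 0.03, -1.20, 0.12 and 0.05.

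In white matter the C1q chains rose by log2 fold changes of 4.60 for C1qa (adjusted p = 1.44e-07), 2.89 for C1qb (adjusted p = 0.000117) and 3.26 for C1qc (adjusted p = 7.93e-06). Csf1r rose by 2.47 (adjusted p = 4.84e-06), Cd68 by 4.04 (adjusted p = 0.0043) and Trem2 by 4.09 (adjusted p = 0.00719). Tmem119 had 3.04 (adjusted p = 0.215) and Cx3cr1 1.39 (adjusted p = 0.438). Since the cortex sums held 0 or 1 UMI of C1qa, Cd68 and Trem2, their fold changes depend on the prior count. In direct counts, summed C1q was 8.61-fold higher in white matter than in cortex of the micropillar library (4.30 to 19.6) and 17.8-fold higher in the flat library (7.73 to 50.5). With wider classes, which took in 262 micropillar and 282 flat cortex spots, these folds were 5.70 (3.82 to 8.74) and 7.42 (5.04 to 11.1). The call of Cd68 was lost with DESeq2 (adjusted p = 0.0888), a class rule stricter by its deviance, at least 10 (0.0564), and classing by the highest ratio of list UMIs to their section-wide share (0.0534), out of a range of 0.00142 to 0.0888 over its alternatives. That of C1qb was lost by edgeR at a deviance of at least 10 (adjusted p = 0.226, the highest of a range from 1.15e-05). At that deviance only C1qa, C1qc and Csf1r kept their calls, where 105 of 9021 genes rose and 18 fell, so that of Trem2 was lost too. Classing by the highest ratio left 4 members called, where 400 of 11469 genes rose and 317 fell. The call of Trem2 was also lost with the wider classes by edgeR (adjusted p = 0.179, 0.00406 to 0.240 over all alternatives). With the wider classes 5 members rose, where 3.04% of all genes did and 2.46% fell.

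In bone spots 7 members rose, with Cd68 at 6.22 (adjusted p = 5.33e-08), C1qa at 5.26 (adjusted p = 2.67e-06), Tmem119 at 4.96 (adjusted p = 0.00643) and Trem2 at 4.38 (adjusted p = 0.039). C1qb, C1qc and Csf1r rose by 3.20, 3.43 and 2.91. Cx3cr1 had -0.03 (adjusted p = 1). These sums rest on 55 UMIs of the 9 genes in the micropillar library and 24 in the flat library, and with a stricter class rule, a deviance of at least 10, only C1qa, Csf1r and Cd68 kept their calls. Their adjusted p over all alternatives reached 0.425 for C1qb, 0.135 for C1qc, 0.519 for Tmem119 and 0.541 for Trem2 by edgeR. With the wider classes 7 rose, where 5.04% of all genes did and 3.68% fell. Summed C1q was 26.0-fold higher than in cortex in the micropillar library (11.7 to 63.7) and 19.1-fold higher in the flat library (6.09 to 65.4).

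In skin spots Cd68 rose by 5.05 (adjusted p = 8.78e-09), C1qa by 3.91, C1qb by 2.90, C1qc by 2.49 and Csf1r by 1.74 (adjusted p = 0.000502). Tmem119 (1.95, adjusted p = 0.256), Trem2 (1.41, adjusted p = 0.453) and Cx3cr1 (-1.46, adjusted p = 0.267) were not called. In striatum the values ran from 0.47 for C1qc to 2.79 for Cd68, and 3 of 8 had an unadjusted p under 0.05, with no adjusted p below 0.155 by edgeR. With the wider classes none rose in striatum, where 3.51% of all genes did and 3.04% fell, and 5 rose in skin, where 24.2% did and 20.7% fell.

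Meningeal spots numbered 8 in each library and held under 5000 UMIs, so they were not in that fit. They had 2 C1q UMIs in the micropillar library and 2 in the flat library, or 465 and 558 CPM with upper limits of 1679 and 2014 CPM. With the wider classes 0 of 8 members were called by edgeR between meningeal and cortex spots, where 0.194% of all genes rose and 0.326% fell. C1qa had the lowest p, with a log2 fold change of 2.75 (adjusted p = 0.123).

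C1q was detected thinly, mostly as single molecules. Of 617 micropillar spots and 409 flat spots with a C1q UMI, 480 and 331 held 1 UMI, and the maximum was 6 in each library. After each spot was thinned to 250 UMIs, 9.48% of micropillar spots (8.40 to 10.6) and 7.15% of flat spots (6.07 to 8.36) had one. This left out 331 micropillar and 653 flat spots that were shallower. The unthinned shares were 20.1% in the micropillar library and 15.3% in the flat library. Collagen-rich spots had 35.4% in the micropillar library and 35.7% in the flat library, white matter 15.8% and 16.8%, and skin 12.5% and 7.19%. The median depth of collagen-rich spots was 405 UMIs in the micropillar library and 246 in the flat library. Most flat ones were therefore left out, and their share covers only the deeper spots. Striatum had 2.90% in the micropillar library and 1.57% in the flat library. Cortex spots gave 1 of 55 in the micropillar library and 2 of 62 in the flat library. At this common depth the shares of collagen-rich and white matter spots thus exceeded those of striatum spots beyond counting error in each library.

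**Figure D3:**
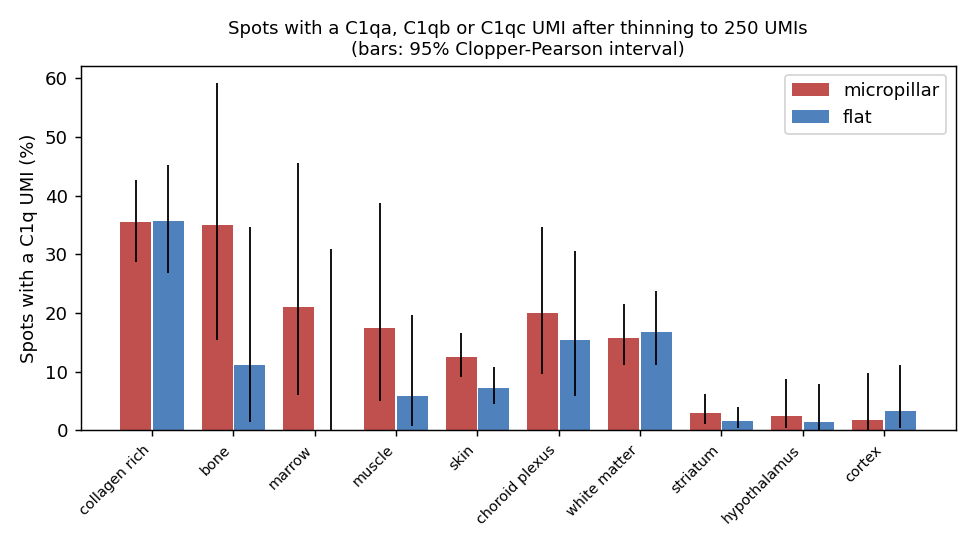
Percent of spots with a C1qa, C1qb or C1qc UMI after thinning to 250 UMIs, by spot class, with micropillar bars left of flat bars and 95% Clopper-Pearson intervals. Collagen-rich spots reach 35.4% and 35.7%, and striatum and cortex spots stay under 5%. Spots with fewer than 250 UMIs are left out, among them most flat collagen-rich spots.

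The chains tended to share spots. At 250 UMIs, C1qc was found in 12.4% of micropillar spots with a C1qa UMI, against 2.84% of spots without one. In the flat library this was 12.5% against 2.37%. Cd68 was found in 10.0% of micropillar spots with a C1q UMI, against 2.83% of the others, and in 8.28% of flat spots with a C1q UMI, against 2.60% of the others. Csf1r was found in 9.27% of micropillar spots with a C1q UMI, against 5.13% of the others, and in 15.9% of such flat spots, against 4.94%. Spots of 1 class share their makeup, so these shares describe co-location and were not tested.

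Within the marker classes, of 49 ratios of a member in a class with more than 3 UMIs in at least 1 library, 4 had an interval without 0, where 5.2% of such ratios over all genes did. In white matter this held for 2 of the 8 members counted so, Csf1r and Trem2, where 5.81% of all genes did. Csf1r had 32 UMIs, 226 CPM, in micropillar white matter and 44 UMIs, 497 CPM, in flat white matter, a log2 ratio of -1.13 (-1.84 to -0.45). Trem2 had 5 UMIs, 35.3 CPM, in micropillar white matter and 12 UMIs, 136 CPM, in flat white matter, a log2 ratio of -1.91 (-3.80 to -0.33). Both genes were lower with micropillars there. Summed C1q had a log2 ratio of -0.40 (-0.91 to 0.12), which was -0.56 (-0.97 to -0.14) with the wider classes and -0.46 (-0.89 to -0.02) with spots classed by the highest ratio. Its difference from Csf1r was not tested. The sum of the 9 genes was 904 CPM in micropillar and 1571 CPM in flat white matter, a log2 ratio of -0.80 (-1.16 to -0.44). Over 5 class rules this ratio stayed between -0.83 and -0.74.

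An astrocyte gene also differed between the white matter spots of the 2 libraries. The astrocyte gene Gfap had 607 CPM in micropillar and 1243 CPM in flat white matter, a log2 ratio of -1.03 (-1.46 to -0.61). The myelin gene Mbp had 6715 CPM in micropillar and 7030 CPM in flat white matter, a log2 ratio of -0.07 (-0.21 to 0.08). Mbp is in the marker list that defines these spots, so their selection partly sets its level. Its ratio was -0.003 (-0.19 to 0.18) at a deviance of at least 10. It was -0.27 (-0.39 to -0.14) with the wider classes and -0.25 (-0.37 to -0.12) with spots classed by the highest ratio. Under these same rules Gfap had -1.24 (-1.60 to -0.88) and -1.27 (-1.65 to -0.90). Whether Gfap-rich spots account for the difference was not tested.

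The other 2 ratios were higher with micropillars. Cd68 in bone spots had 13 UMIs, 844 CPM, in the micropillar library and 2 UMIs, 162 CPM, in the flat library, a log2 ratio of 2.38 (0.24 to 5.57). With the wider classes it was 0.31 (-0.87 to 1.66). C1qb in skin spots had 55 UMIs, 217 CPM, in the micropillar library and 19 UMIs, 115 CPM, in the flat library, a log2 ratio of 0.91 (0.14 to 1.75), and with the wider classes 0.62 (-0.05 to 1.33). In collagen-rich spots, which held the most Cd68 UMIs of the classes, no member's interval excluded 0, and the sum of the 9 genes had a log2 ratio of -0.21 (-0.44 to 0.02).

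Genes of the wider pathway were read from 11 lists with 98 measured genes. Several complement genes that act with or after C1q rose relative to cortex in white matter, bone and skin spots. In these contrasts 2.26% of all genes rose in white matter, 3.46% in bone, 22.1% in skin and 2.66% in striatum. In white matter 3 of 5 tested downstream genes rose, the integrin chain Itgb2 (5.27), C4b (4.88) and the central component C3 (4.39, adjusted p = 1.76e-06). In bone spots 3 of 5 rose, C3, C5ar1 and Itgb2, and in skin 4 of 5, C3, C4b, Cfd and Itgb2. The C1 inhibitor gene Serping1 rose in bone spots (5.89, adjusted p = 3.34e-06) and skin spots (4.61, adjusted p = 1.46e-06), and C1ra, a partner protease of C1q, rose in skin (5.07). Neither was called in white matter. Of the complement inhibitors, Clu rose in white matter (2.09). The Csf1r ligand Il34 fell by 2.96 on the log2 scale in skin (adjusted p = 0.00156).

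Genes listed under the Trem2 response were called in all 4 classes, while Trem2 itself was called in white matter and bone only. Whether the listed genes came from cells with Trem2 was not tested. Tyrobp, the adaptor of Trem2, rose in white matter (3.07, adjusted p = 0.0326), bone (5.34) and skin (3.40). It was not called in striatum (0.72, adjusted p = 0.891). Of 13 tested genes of the Trem2 response, 6 rose in white matter (2.26% of all genes), 10 in bone (3.46%) and 13 in skin (22.1%). In striatum 2 did (2.66%), Axl and Lpl. Apoe, a lipid carrier that astrocytes also make, rose by 3.60 in white matter (adjusted p = 9.21e-09), and the cysteine protease Ctss rose by 3.06 (adjusted p = 7.66e-11). The receptor kinase Axl and the galectin Lgals3 rose in white matter (7.38 and 2.97), bone (7.40 and 5.64) and skin (8.29 and 7.06). Of the other homeostatic microglia genes, Selplg rose in skin (2.58).

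Markers of other macrophages and of osteoclasts lay where C1q was highest. Border and tissue macrophage genes, 12 measured, summed to 961 CPM in collagen-rich spots of the micropillar library and 1054 CPM in those of the flat library. In white matter they summed to 35.3 CPM in the micropillar library and 22.6 CPM in the flat library, from 5 and 2 UMIs, and in cortex to 6.65 and 12.7 CPM. None of 4 such genes tested rose in white matter, 2 rose in bone (3.46% of all genes) and 4 in skin (22.1%), among them the macrophage chemokine gene Pf4 (8.08 in bone and 6.84 in skin). Osteoclast genes summed to 2207 CPM in bone spots of the micropillar library and 1537 CPM in those of the flat library, against 42.4 and 79.1 CPM in white matter. Of 4 osteoclast genes tested, Acp5, Ctsk and Mmp9 rose in bone (8.28, 3.95 and 8.50), where 3.46% of all genes did. The same genes also rose in skin (6.51, 2.42 and 4.65), where 22.1% of all genes did. Monocyte and dendritic genes summed to 3177 CPM in collagen-rich spots of the micropillar library and 4449 CPM in those of the flat library, and Cd74, the invariant chain, rose in white matter (4.42), bone (6.50) and skin (6.55). The part of these cell types in the levels of C1q, Csf1r and Cd68 was not tested.

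**Figure D4:**
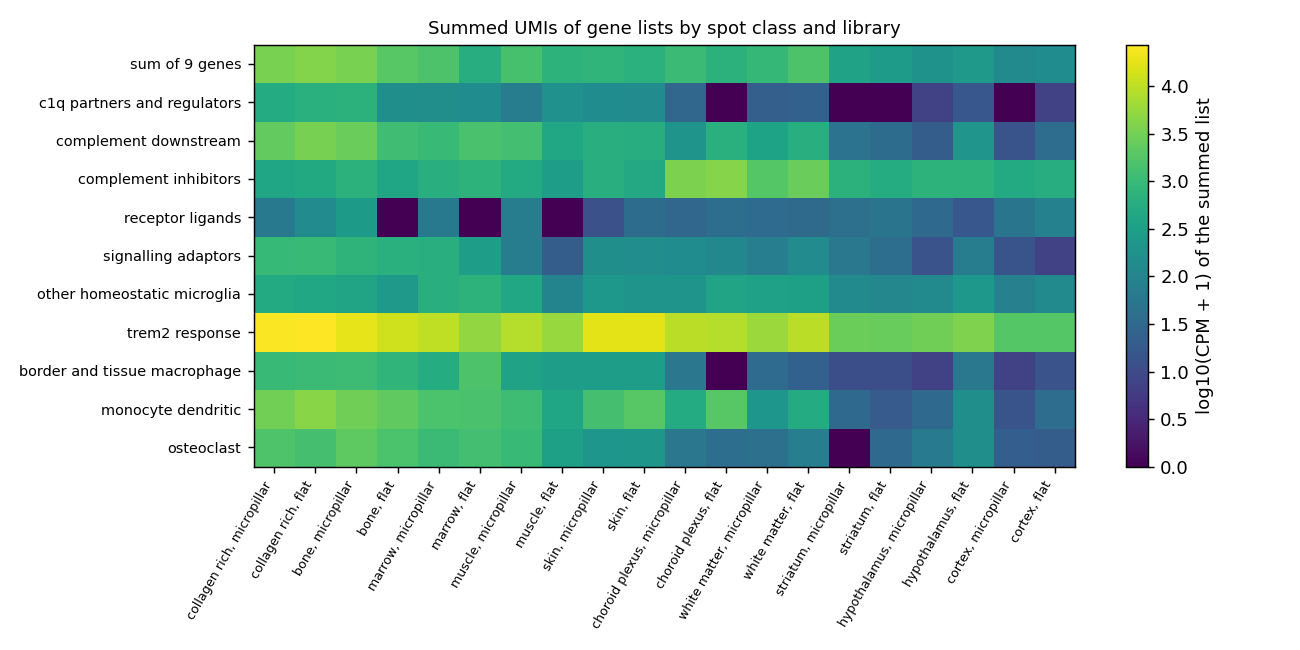
Summed CPM of the 9 genes and of 10 pathway or cell-type lists on a log10 scale of CPM + 1, with classes along the axis and micropillar left of flat. Border and tissue macrophage genes are bright in collagen-rich and bone spots and dark in white matter, where the 9 genes still reach 904 and 1571 CPM.

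Between the implants, 5 of 11 list sums had an interval without 0, 4 of them higher with micropillars. Of all single genes tested, 22.8% had such an interval and 56.9% had a ratio above 0. The sums were scaled by total UMIs, and values under other scalings or spot weights are not given for them. TMM factors, 1.02 for the micropillar library and 0.981 for the flat library, would lower each ratio. The interval of the signalling adaptors starts at 0.03, so it may include 0 under that scaling. Osteoclast genes summed to 159 CPM in the micropillar library and 119 CPM in the flat library, a log2 ratio of 0.41 (0.20 to 0.63). Acp5 had 50.1 CPM in the micropillar library and 24.7 CPM in the flat library, a log2 ratio of 0.99 (0.57 to 1.48). Signalling adaptors summed to 109 CPM in the micropillar library and 89.2 CPM in the flat library, 0.28 (0.03 to 0.54). Other homeostatic microglia genes summed to 199 CPM in the micropillar library and 164 CPM in the flat library, 0.28 (0.10 to 0.47). Among signalling genes, Spi1, which encodes PU.1, had 36 UMIs in the micropillar library and 6 in the flat library, a log2 ratio of 1.76 (0.84 to 3.64). Gpr34, a microglial lysophospholipid receptor, had 21 and 5 UMIs, 1.25 (0.14 to 3.35). Lower with micropillars were the complement factor Cfb, with 17 UMIs in the micropillar library and 32 in the flat library, -1.25 (-2.34 to -0.51), and the lipase Lpl, -0.48 (-0.72 to -0.24). Monocyte and dendritic genes summed to 403 CPM in the micropillar library and 456 CPM in the flat library, -0.18 (-0.30 to -0.06). The Trem2-response genes summed to 5689 CPM in the micropillar library and 5228 CPM in the flat library, 0.12 (0.09 to 0.16). Of the 18054 micropillar and 11832 flat UMIs in that sum, Ctsl gave 4684 and 3064 and Apoe 4477 and 3218. Of its 13 genes tested, 10 were higher with micropillars, and 0 lay past 1.5-fold in either direction. How this sum relates to Trem2 was not tested. Tyrobp had a log2 ratio of 0.24 (-0.10 to 0.59).

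The profile of summed C1q over 20 sums of class and library was most like those of Ctss (Pearson r = 0.91), Selenop (0.88), Cd74 (0.87), Vim (0.85), S100a6 (0.84) and Col5a2 (0.84), of 7258 genes with at least 20 CPM in both libraries. Across 5745 kept spots the highest mean correlations were with Col3a1 (0.24), Selenop (0.24), Col1a2 (0.23), Ctss (0.22), Apoe (0.22) and Fn1 (0.21). For P2ry12 plus Tmem119 the class sums most alike were those of Cyb561a3 (0.89), Srsf5 (0.81), Dusp1 (0.80), Tmbim1 (0.80), Tnfrsf1b (0.80) and Ece1 (0.79), and no gene exceeded 0.08 across spots. These are descriptions over points that share 2 libraries and their depth.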

How the data were processed

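The values are the authors' raw UMI counts for each gene in each spot, not normalised. Space Ranger 2.0.1 made them, per the file headers, whereas Cell Ranger 7.2.0 and the mm10 build stand in the submitters' processing notes. Per the labels' protocol, a directional kit for mRNA was used. The aligner settings and any probe set were not given in the sources used here. No level was corrected for differences in capture between genes. No spot coordinates were used. The 9 genes and all lists were chosen with earlier results of these data known.

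Spots with at least 100 UMIs were kept. In each, k is the UMIs of a marker list and mu the number its share in all kept spots would give. The spot took the list with the highest Poisson deviance where k was at least 2, k/mu at least 1.5 and the deviance at least 5. The wider classes (deviance of at least 1) and collagen-rich spots were added after the data were seen, because the stricter rule left most spots with cortex genes unassigned. No doublet caller or cell-type deconvolution was run. A symbol on several rows (11 symbols) was read from the row with more counts.

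CPM have exact Poisson 95% intervals, and ratios and shares exact Clopper-Pearson ones. A count of 0 allows 3 counts of the total. Class contrasts used edgeR 4.0.16 with TMM on genes with at least 20 UMIs and classes with at least 5000 UMIs in each library, 18 sums in all. Both sections hold every class, so the library was a block. DESeq2 1.42.0 was an alternative. Scripts ran in Python 3.11.15 and R 4.3.3 and were tested on simulated data. Of the gene identifiers, 19451 matched GENCODE M21. Named genes were all 9 members and, from each list, the most abundant, highest and lowest gene by ratio. Genes named from a list in the class contrasts were chosen after their values were seen. Some genes of the lists are not reported here. The 6 genes most like each profile were named without the members. Alternatives covered scaling, filters, weights, pseudocount, class rule, thinning and each library alone.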

Additional observations from a re-analysis of the deposited data

Results flagged for a closer look

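Spots under 100 UMIs, left out above, also held C1q. In 239 micropillar spots they had 5 C1q UMIs, or 325.8 CPM, and in 480 flat spots 14 UMIs, or 610.0 CPM, above the 195.5 and 130.7 CPM that a count of 0 allows. The sum of the 9 genes there was 651.7 CPM in the micropillar library (10 UMIs) and 1264 CPM in the flat library (29 UMIs). Under the main class rule the sum of the 9 genes moved in opposite directions between implants in different classes. Its log2 ratio of micropillar over flat was 0.88 in bone spots and 0.92 in muscle spots, against -0.80 in white matter spots. The bone value was -0.052 with the wider classes and 0.18 with spots classed by the highest ratio. The muscle value was 1.18 (0.64 to 1.72) with the wider classes and 1.01 (0.37 to 1.65) by the highest ratio. Summed C1q in muscle spots had 1.43 (0.17 to 2.65) under the main rule. Muscle spots numbered 37 in the micropillar library and 266 in the flat library. The difference between classes was not tested. Under the main rule the bone and muscle values rest on 55 and 19 UMIs in the micropillar library and 24 and 37 in the flat library.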

How the results depend on the processing

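No paired analysis was possible between the implants because each group has 1 library with the same number, and 1 pair leaves no spread. In the class contrasts the fit with no replicate block called 6 members in white matter, 7 in bone, 5 in skin and 0 in striatum, the same counts as with it. Of 18 called member contrasts, 159 alternative fits ended 12 calls and reversed 0. With a deviance of at least 10 the calls were 3 in white matter and 3 in bone. The section-wide sum of the 9 genes had a log2 ratio of 0.40 in spots with at least 500 UMIs, -0.20 with every spot weighing the same, and 0.00 with TMM or DESeq2 factors. Members past 1.5-fold then numbered 3 in the deeper spots: C1qb, C1qc and Cd68 rather than Trem2. Within bone spots the sum of the 9 genes had 1.68 with a deviance of at least 10, and it reversed to -0.052 with the wider classes. In muscle spots of at least 250 UMIs it had 1.81. The cause of these changes was not tested. The share of spots with a C1q UMI was 11.1% in the micropillar library when thinned to 500 UMIs, and 20.1% in the micropillar library and 15.3% in the flat library with no thinning. Cortex sums of 0 to 6 UMIs for each of C1qa, C1qb, C1qc, Trem2, Tmem119 and Cd68 limit every fold against cortex.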
